A study of Mus musculus with 4 samples.

Results

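The regions described here are 291 ChIP-seq peaks that were called in cells not given doxycycline, that no peak of doxycycline-treated cells overlaps, and that lie at the border of a protein-coding gene. They were chosen from the 10532 peaks of the non-induced list by 2 conditions. No peak of the induced list overlapped them by 1 bp or more, and their nearest base lay within 1 kb of the start or end of a protein-coding gene (RefSeq, GRCm38, the same coordinates as mm10) on chromosomes 1 to 19 or X. Of the 10328 non-induced peaks on these chromosomes without an induced partner, they make up 2.82% (exact 95% interval 2.51 to 3.16). Both lists together hold 16029 peaks. The positions of the peaks of both lists chose the regions, so their absence from the induced list and their place near a border are no findings.

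The cells were mouse embryonic fibroblasts (MEFs), primary connective tissue cells of the embryo, labelled as overexpressing HA-tagged Fbxl10, a gain of function model. HA ChIP-seq was done on induced cells, given 1 µg/ml doxycycline for 48 hours to switch on HA-Fbxl10, and on non-induced cells of the same genotype, both with the same HA antibody. Each condition also had an input library, so that there are 4 libraries in all, and the 2 peak lists (5497 induced and 10532 non-induced peaks) were used here. With 1 list per condition there is no replicate check, no test was made, and every difference below is one between lists. The sequencing depth is unknown. Intervals below are exact ones at 95% and cover counting error only. The labels mention 3 independent samples without saying which list holds which. The peak lists cannot show whether the cells carried fibroblast markers.

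Fbxl10, also called Kdm2b, removes methyl groups from histones. Its CXXC zinc finger binds DNA at unmethylated CpG dinucleotides, which crowd in CpG islands at the starts of many genes, and it brings a variant Polycomb complex there. The HA antibody recognises the tag and not Fbxl10 itself, and the level of tagged protein without doxycycline cannot be read from peak lists.

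Of the 291 peaks, 36 promoter windows of 35 genes were covered in part or whole, and the sequences below show the range of DNA beneath them. A promoter window is 300 bases of RefSeq sequence (GRCm38.p6), from 250 bases before a gene's start to 50 after it. Among windows with at least 150 bases under a peak, the 3 highest-scoring CpG-rich ones and the 3 highest-scoring ones with 3 CpGs or fewer are printed 5′ to 3′ on the gene's strand, with each CpG in capitals. They are Urm1 (chr2:29827139-29827438, plus strand), Cdc37l1 (chr19:28990117-28990416, plus), Dtl (chr1:191575495-191575794, minus), Gm1527 (chr3:28892369-28892668, plus), Sult6b2 (chr6:142804417-142804716, minus) and Olfr1031 (chr2:85991569-85991868, plus).
Urm1: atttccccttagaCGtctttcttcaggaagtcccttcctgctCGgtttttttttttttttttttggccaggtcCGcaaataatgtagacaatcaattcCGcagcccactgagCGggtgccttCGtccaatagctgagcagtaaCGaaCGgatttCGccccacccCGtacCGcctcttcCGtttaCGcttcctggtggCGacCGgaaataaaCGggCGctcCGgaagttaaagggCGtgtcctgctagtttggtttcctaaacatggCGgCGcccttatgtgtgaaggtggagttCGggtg
Cdc37l1: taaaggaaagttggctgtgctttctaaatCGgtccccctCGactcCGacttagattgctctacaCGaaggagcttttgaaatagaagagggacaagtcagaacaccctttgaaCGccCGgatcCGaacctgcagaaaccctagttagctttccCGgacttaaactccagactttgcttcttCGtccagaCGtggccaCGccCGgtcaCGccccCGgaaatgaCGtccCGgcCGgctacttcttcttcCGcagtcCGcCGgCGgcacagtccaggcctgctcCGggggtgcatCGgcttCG
Dtl: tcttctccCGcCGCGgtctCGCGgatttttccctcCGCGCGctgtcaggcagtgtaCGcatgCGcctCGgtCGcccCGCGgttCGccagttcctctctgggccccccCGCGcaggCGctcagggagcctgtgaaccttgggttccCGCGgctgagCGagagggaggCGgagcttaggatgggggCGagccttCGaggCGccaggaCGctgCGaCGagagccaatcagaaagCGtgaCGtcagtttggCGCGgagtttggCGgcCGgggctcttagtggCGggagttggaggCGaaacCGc
Gm1527: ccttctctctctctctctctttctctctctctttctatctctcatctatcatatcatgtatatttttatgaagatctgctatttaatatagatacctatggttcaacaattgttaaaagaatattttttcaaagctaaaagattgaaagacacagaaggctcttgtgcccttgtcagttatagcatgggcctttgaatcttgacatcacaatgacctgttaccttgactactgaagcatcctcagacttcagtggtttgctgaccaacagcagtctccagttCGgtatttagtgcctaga
Sult6b2: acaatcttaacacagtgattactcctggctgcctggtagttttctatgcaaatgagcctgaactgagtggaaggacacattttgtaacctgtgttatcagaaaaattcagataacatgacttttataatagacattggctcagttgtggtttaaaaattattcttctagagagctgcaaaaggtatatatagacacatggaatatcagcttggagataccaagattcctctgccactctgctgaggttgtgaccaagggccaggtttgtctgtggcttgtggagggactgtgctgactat
Olfr1031: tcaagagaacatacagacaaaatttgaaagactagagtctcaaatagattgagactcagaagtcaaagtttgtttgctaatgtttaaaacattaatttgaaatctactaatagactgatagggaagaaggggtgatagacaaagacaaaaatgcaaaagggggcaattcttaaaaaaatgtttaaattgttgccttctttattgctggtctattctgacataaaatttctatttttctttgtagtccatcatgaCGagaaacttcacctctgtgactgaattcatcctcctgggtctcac

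The first 3 sequences are CpG-rich. Urm1, a ubiquitin-related protein that also carries sulphur for tRNA modification, had 22 CpGs in its window, Cdc37l1, a relative of the Hsp90 co-chaperone Cdc37, had 24, and Dtl, a substrate receptor of a ubiquitin ligase active in DNA replication, had 37. The others had 1 CpG (Gm1527, a predicted gene), 0 (Sult6b2, a sulfotransferase) and 1 (Olfr1031, an odour receptor). Peaks covered 182, 300 and 283 bases of the CpG-rich windows and 300, 223 and 300 bases of the others. The sequences under these peaks thus ran from CpG-dense promoters to promoters with hardly any CpG.

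The peaks bordered 304 protein-coding genes, which is 1.41% of the 21631 on these chromosomes (1.25 to 1.57). A gene with an induced border peak was far more common, with 2930 genes (13.5%). That count takes all induced peaks, also those that overlap a non-induced peak, so the 2 sets were not chosen alike. Of the 291 peaks 62 (21.3%) touched a border itself, and the median gap between the peak and its nearest border was 370 bp. A peak bordered 1 gene in most cases, and 20 peaks (6.87%, 4.25 to 10.4) bordered 2. The member genes were of ordinary length, with a median of 20.1 kb, against 17.3 kb for all coding genes. At the edge of the window, the last peaks inside were those of Car2, which encodes a carbonic anhydrase (gap 992 bp, score 55.9), Dnttip2 (991 bp, 52.6) and Zfp992 (986 bp, 156), and the first outside were at Klra6 (1010 bp, 64.8), Wbp2 (1016 bp, 65.2) and Pfn2 (1018 bp, 59.1).

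Each peak carries a score from the authors' peak caller, which was low for most of these regions. The lowest was 50.05, the median 62.8 and the highest 156. The lowest were at Elavl4, an RNA-binding protein gene of neurons (50.05), and at Cdh6, Serpine3 and Slfn3, which tied at 50.06. These values lie at the floor of the lists, as the other non-induced-only peaks began at 50.01 and the induced-only border peaks at 50. The first quartile of the border peaks was 54.9. Scores of at least 75 were reached by 62 of the 291 peaks (21.3%, 16.7 to 26.5), against 1524 of the 10037 other non-induced-only peaks (15.2%, 14.5 to 15.9). Scores of at least 100 were reached by 20 (6.87%, 4.25 to 10.4), against 291 of the others (2.90%, 2.58 to 3.25). Medians were close, at 62.8 for the border peaks and 60.1 for the other non-induced-only peaks. Induced-only peaks at coding borders had a median of 78.2, and whether the scores of both lists share a scale was not tested.

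**Figure D1:**
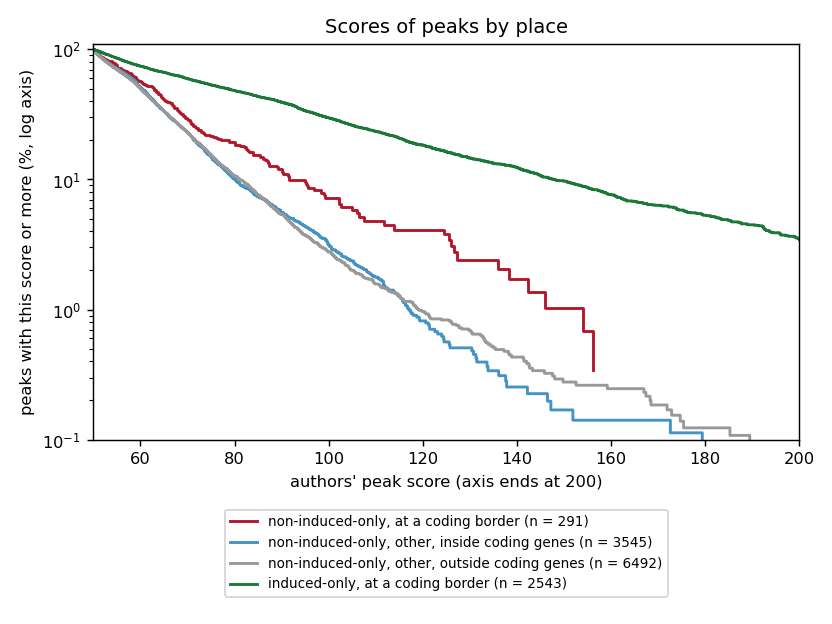
Share of peaks (log axis, %) at or above each authors' peak score, for the 291 non-induced-only border peaks, the other non-induced-only peaks inside (3545) and outside (6492) coding genes, and the 2543 induced-only border peaks. The border peaks run above both other non-induced classes over most of the axis and end at 156, while the axis stops at 200 and leaves out the highest peaks of the remaining classes.

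Widths did not set the border peaks apart. Their median was 587 bp and their middle range, from the first to the third quartile, ran over 556 to 635.5 bp, against a median of 586 bp and a middle range of 554 to 617 bp for the other non-induced-only peaks. The median width of induced-only border peaks was 861 bp. The widest border peak, of 4630 bp, lay beside the predicted gene Gm10354 on chromosome 5, and the next were at Gm21149 (2254 bp) and again at Gm10354 (2176 bp).

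The border peaks were spread over gene starts and gene ends. For 240 of the 291 the annotation gave the strand of the nearest gene. Of these 112 were nearest to its start (46.7%, 40.2 to 53.2) and 128 to its end. Of induced-only border peaks with a known strand 93.8% (1912 of 2039) were nearest to a start. Peaks at starts had a median score of 64.0 and those at ends of 60.4. The midpoint lay inside the gene for 48 of the 112 peaks at starts and 65 of the 128 at ends. Over all 291 the midpoint was inside the nearest gene for 137 (47.1%, 41.2 to 53.0), against 66.1% of induced-only border peaks.

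Counts of peak midpoints along genes put the border peaks in their surroundings. Over the 17274 genes of known strand, non-induced-only midpoints numbered 88 within 1 kb of a start, in 4 bins of 500 bp with 13 to 27 each, and 440 from 1 to 5 kb away, in 16 bins with 16 to 46 each. The lowest bin was the first 500 bp of the gene, with 13, and the highest lay 1500 to 2000 bp into the gene, with 46. Around gene ends they numbered 113 within 1 kb (19 to 40 per bin) and 351 from 1 to 5 kb (15 to 34 per bin). Induced-only midpoints numbered 1996 within 1 kb of a start, with 765 in the first 500 bp of the gene, and 187 within 1 kb of an end. A further 21 non-induced midpoints within 1 kb of a start belonged to peaks shared with the induced list, which the choice of regions left out. Windows of 1 kb around all borders of coding genes, widened to allow for the median peak width, cover 3.82% of the annotated span, and 2.82% of the non-induced-only peaks lay in them.

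**Figure D2:**
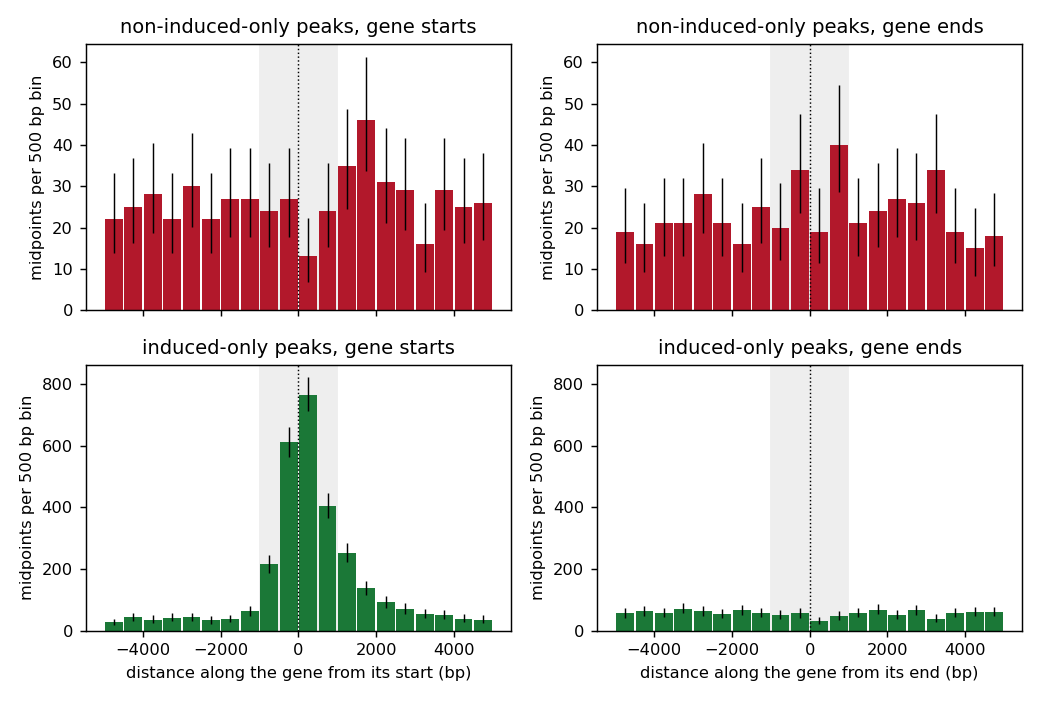
Midpoints of non-induced-only peaks (top) and induced-only peaks (bottom) per 500 bp bin around the starts (left) and ends (right) of 17274 coding genes, with exact Poisson intervals. Grey marks 1 kb on either side of the border, and positive distances run in the direction of the gene. Non-induced-only bins near starts hold 13 to 27 midpoints, and the induced-only bins there hold 216 to 765.

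Sequence at the starts was split between CpG-rich and CpG-poor promoters. A window was called CpG-rich when its GC content was at least 50% and its CpGs were at least 0.6 of the number expected from its C and G content. Of the 36 windows under the border peaks 18 were CpG-rich (50%, 32.9 to 67.1), against 1604 of 1941 windows under induced-only peaks (82.6%, 80.9 to 84.3) and 9584 of all 21020 coding windows (45.6%). Some of the 36 lie under the same peak, as do both windows of Rfesd and those of Dtl and Ints7. They are then not independent counts. Among 123 windows whose start lay within 1 kb of a border peak, 60 were CpG-rich (48.8%, 39.7 to 58.0). Median CpG counts were 12 under the border peaks, 24 under induced-only peaks and 13 over all coding windows. No CpG at all was found in 4 of the 36 windows, those of Gm32584, Gm5797, Sult6b2 and Vmn2r88. This was so for 0 of the 1941 under induced-only peaks, which allows up to 0.155%, and for 938 of all 21020 coding windows.

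CpG-rich windows under the border peaks included those of Eea1, a tether of early endosomes (27 CpGs, score 127), Vps13a, a lipid transfer protein (42, 82.6), Ints7 of the Integrator complex (30, 64.3), Trim13 (18, 58.0), Gle1, an mRNA export factor (25, 54.1), and Slbp, the histone mRNA stem-loop binding protein (22, 54.5). The peak of Dll1, a Notch ligand, reached 8 bases into its window (15 CpGs, 50.8). CpG-poor windows included those of the mucin-like gene Mucl2 (1 CpG, 142), the predicted gene Gm32584 (0, 127), the odour receptors Olfr894 (1, 81.1) and Olfr67 (2, 50.4), the pheromone receptors Vmn1r21 (1, 65.3) and Vmn2r88 (0, 50.7), and Samd9l (1, 64.5). Scores overlapped between the classes: the 16 peaks over CpG-rich windows ranged from 50.8 to 136 with a median of 60.4, and the 17 over the others from 50.4 to 142 with a median of 64.5.

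**Figure D3:**
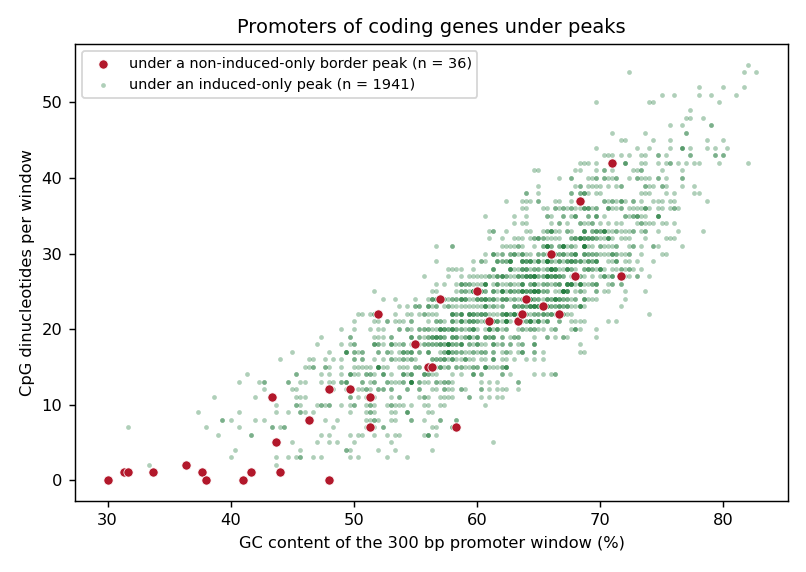
GC content (%) and number of CpG dinucleotides of 300 bp promoter windows under the non-induced-only border peaks (36, large points) and under induced-only peaks (1941, small points). The border peaks include windows with 0 to 2 CpGs as well as windows with up to 42, and no induced-only peak covers a window with none.

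Short motifs were searched as exact letters on both strands of the same windows, and none of them contains another. GGGCGG, the GC box, was in 12 of 36 windows under the border peaks (33.3%, 18.6 to 51.0), in 69.0% of windows under induced-only peaks and in 46.6% of all coding windows. CCAAT was in 19 (52.8%, 35.5 to 69.6), against 40.3% under induced-only peaks and 38.5% of all. TATAAA was in 4 (11.1%), those of Trim13, Enpep, Sult6b2 and Olfr67, against 6.90% under induced-only peaks and 12.7% of all. CACGTG was in 3 (8.33%), that of Hs3st3a1 and both of Rfesd, against 9.33% and 7.91%. TGACTCA and a run of 6 CA repeats were in 0 of the 36 each, which allows up to 8.33%, and in 4.69% and 0.790% of all coding windows. A match describes the letters and not a binding site.

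The 25 highest-scoring border peaks lay at genes of many kinds. Zfp992, one of a cluster of zinc finger genes on distal chromosome 4, had the highest (156, chromosome 4, 146470426 to 146472163), although its nearest base was 986 bp from the gene. Ube2d3, a ubiquitin-conjugating enzyme, had a peak of 154 over its end (chromosome 3, 135468125 to 135469369). Ddx4, the germ cell RNA helicase also known as Vasa, had one of 146 over its end (chromosome 13, 112598265 to 112599103). Mucl2 had one of 142 over its start (chromosome 15, 103898593 to 103899361). The zinc finger gene Prdm10 followed (138, 65 bp from its end), then Urm1 (136, 69 bp from its start) and Eea1 (127, 120 bp from its start). These 7 leading peaks thus lay at 3 starts, 3 ends and 1 border of unknown kind.

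Scores of 100 to 127 belonged to 13 further peaks. Among them were the start of Gm32584 (127), the end of Gin1, which derives from a retrotransposon integrase (126.11), and Iigp1, an interferon-induced GTPase of pathogen defence (125.51). The G protein regulator Rgs11 and its neighbour Arhgdig shared one (114), as the highest of the peaks with 2 genes. The nicotinic acetylcholine receptor gene Chrna2 (107), the splicing factor gene Txnl4a (106), Cdca2, which targets a phosphatase to chromosomes in mitosis (103), and Olfr1436 (102) had others. The remaining ones lay at Gm10354 (125), Gm42346 (112), Gm21083 (107), Zfp985 (105) and Gm9758 (102). Below 100 came Tas1r1, a subunit of the umami taste receptor, which shared its peak with the telomere-binding protein gene Zbtb48 (99.2), Speer4c (99.03), the somite factor gene Dmrt2 (98.4), Gm10354 again (96.8) and Sult3a2 (95.7).

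Among the peaks with 2 genes, after Rgs11 and Tas1r1, high-scoring ones joined the protease gene Capn7 with Sh3bp5 (78.8), Kif15, a mitotic kinesin, with 1110059G10Rik (71.6), and Btf3l4 with Txndc12 (70.2). Others joined the phosphatase inhibitor gene Anp32a with Gm20346 (69.6), and Mettl5, which methylates ribosomal RNA, with Ssb, which encodes the La protein (65.9). The peaks of Kif15 and of Btf3l4 and Txndc12 lay at starts of both genes, and those of Capn7 and of Mettl5 at ends of both.

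Of the 28 gene lists examined, 18 had at least 1 gene with a border peak, against a share of 1.41% over all coding genes. The lists hold 98 of the 304 marked genes. In 3 lists the whole interval lay above the share of all coding genes, namely Hox genes, signalling genes and olfactory receptors. Each interval is for its list alone, and no allowance was made for the number of lists. Some peaks border a pair of neighbours, which are then not independent counts, and the members and lists were chosen with earlier results of these data known.

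Hox genes, which set the identity of body segments, had a border peak in 6 of 39 cases (15.4%, 5.86 to 30.5), each with a peak of its own. Hoxb8 had the highest, with a score of 89.0 and its midpoint 588 bp upstream of its start (chromosome 11, 96278371 to 96279255). Others were Hoxa13 (70.9, at its end), Hoxd1 (60.4, at its end), Hoxb3 (59.3) and Hoxc8 (59.3). The marked genes lie in all 4 Hox clusters, on chromosomes 2, 6, 11 and 15. An induced border peak was found at 0 of the 6, against 31 of all 304 marked genes (10.2%), and at 10 of the 39 Hox genes (25.6%). The choice of regions left out peaks that overlap an induced one, which favours a low count at marked genes. Of the 6 peaks 4 had an induced peak within 10 kb, against 50 of all 291 (17.2%) and 14.8% of all coding gene borders. The 1 Mb bins of these 6 peaks held 10 to 16 induced peaks each, and whether the nearness reflects that density was not tested. With peaks at or above the median score of both lists joined (61.6), 2 of the 39 Hox genes were left (5.13%, 0.627 to 17.3), an interval that includes the 0.767% of all coding genes at that limit.

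Signalling genes of the Wnt, Notch, TGF-beta and hedgehog pathways had a border peak in 4 of 60 cases (6.67%, 1.85 to 16.2), against 20 with an induced one. Wnt3, a ligand needed for gastrulation, had a peak of 91.7 with its midpoint 1178 bp upstream of its start. That midpoint lay inside another protein-coding gene. Lef1, a transcription factor at the end of the Wnt pathway, had one of 78.9 with its midpoint 641 bp upstream of its start, and an induced peak of 133 lay 1350 bp from it. Hes1, a repressor switched on by Notch, had one of 69.8, and Dll1, its upstream ligand, one of 50.8. Only Lef1 of the 4 also had an induced border peak.

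Olfactory receptor genes, which are silent outside the nose in most cells, had the most border peaks of any family. Of 1110 such genes 31 were marked (2.79%, 1.91 to 3.94), by 30 peaks on 10 chromosomes, against 0 marked by an induced border peak, which allows up to 0.270%. The scores ran from 50.3 to 102 with a median of 58.9, led by Olfr1436 (102), Olfr437 (87.1), Olfr13 (83.9) and Olfr1359 (82.5). Most lay at the 3′ side, with 20 nearest to a gene end, 6 nearest to a start and 4 of unknown kind. An induced peak lay within 10 kb of 1 of the 30. At or above the joint median score (61.6) 11 of the 1110 genes were left (0.991%, 0.496 to 1.77), and this interval includes the 0.767% of all coding genes at that limit. Vomeronasal receptor genes, which detect pheromones, were marked in 8 of 353 cases (2.27%, 0.983 to 4.42), with Vmn1r172 (70.5), Vmn1r21 (65.3), Vmn2r14 (55.8) and Vmn2r112 (55.2) highest.

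Zinc finger genes named Zfp were marked in 9 of 397 cases (2.27%, 1.04 to 4.26), by 12 peaks. Zfp992 (156), Zfp985 (105), Zfp979 (95.4) and Zfp980 (95.2) led them, all on distal chromosome 4. Without the stretch described below, 4 of the 9 were left. Predicted genes, with symbols made of Gm and digits or ending in Rik, were marked in 23 of 1512 cases (1.52%, 0.967 to 2.27), close to all coding genes, with Gm32584, Gm10354, Gm42346 and Gm21083 highest.

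Other lists gave 1 to 3 genes each. Ubiquitin-conjugating enzymes had Ube2d3 (154) and Ube2q2 (57.8) of 31, serpins had Serpinb7 (75.4) and Serpine3 (50.06) of 63, and mitochondrial ribosomal proteins had Mrpl51 (67.8) and Mrps18c (63.6) of 78. Solute carriers had Slc5a5 (90.0), the vesicular monoamine transporter Slc18a2 (55.9) and the zinc transporter Slc30a5 (54.2) of 375, which is 0.8%. Single genes were Ddx4 of 34 germ cell genes, Clec2e (86.5) of 62 lectin-like genes, Sox21 (85.5) of 63 forkhead and Sox genes, and Zic2 (80.2) of 83 developmental transcription factors. Pcdh18 (69.1) of 69 protocadherins, Krtap27-1 (59.0) of 109 keratin genes and Kcnn1 (51.3) of 94 potassium channel genes were further ones. Each of these shares has 1.41% inside its interval.

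In 10 lists no gene had a border peak. They were replication-dependent histones (0 of 63, which allows up to 4.76%), cytochrome P450 genes (0 of 97, up to 3.09%), collagens (0 of 44, up to 6.82%), Polycomb and lysine demethylase genes (0 of 46, up to 6.52%), and cell cycle and replication genes (0 of 65, up to 4.62%). Immediate early genes (0 of 25), fibroblast matrix genes (0 of 30) and markers of neurons, of blood, and of endothelium and epithelium (0 of 20 each) complete them, with limits of 12% for the first, 10% for the second and 15% for the markers. Each of these limits lies above 1.41%, so a difference from all coding genes was not detectable with lists of this size. Induced peaks, which bordered 13.5% of all coding genes, bordered 40 of the 63 histone genes (63.5%, 50.4 to 75.3), 11 of the 25 immediate early genes (44%), 10 of the 30 fibroblast genes (33.3%), 14 of the 46 Polycomb and demethylase genes (30.4%) and 19 of the 65 cell cycle genes (29.2%). They bordered 7 of the 44 collagens (15.9%), 3 of the 20 endothelial and epithelial markers (15%), 2 of the 20 neuron markers and 2 of the 20 blood markers (10% each), and 2 of the 97 cytochrome P450 genes (2.06%).

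**Figure D4:**
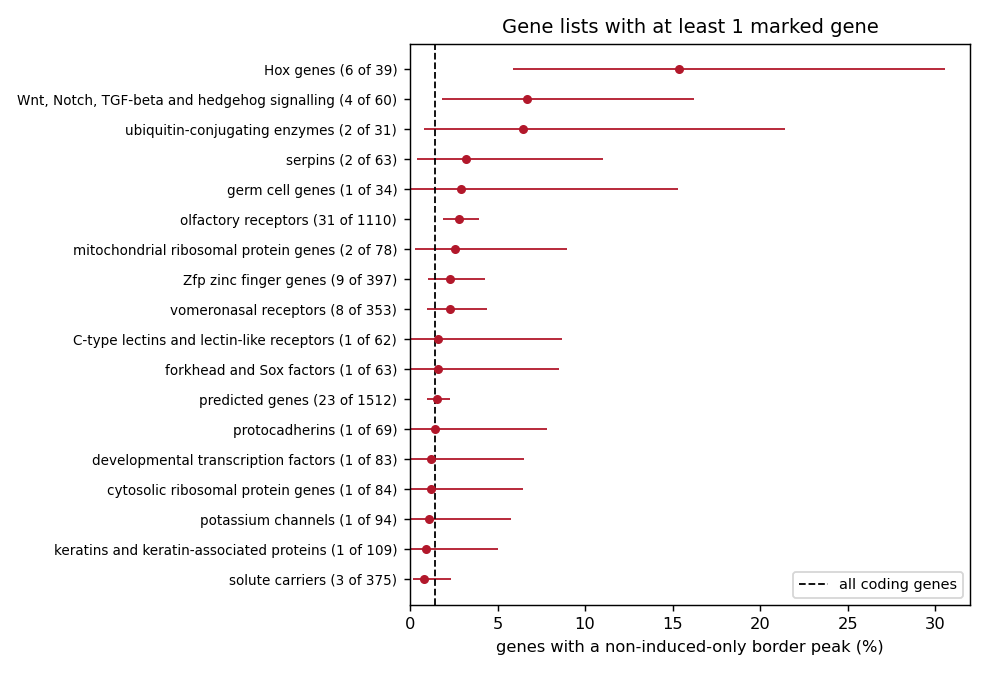
Share (%) of each gene list with a non-induced-only border peak, as a point with its exact 95% interval, for the 18 lists with at least 1 such gene; the dashed line is the share of all coding genes (1.41%). Hox genes (15.4%), signalling genes (6.67%) and olfactory receptors (2.79%) are the lists whose interval lies to the right of the line.

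Genes with border peaks from both lists numbered 31 of the 304 (10.2%, 7.03 to 14.2), against 13.5% of all coding genes with an induced border peak. The choice of regions left out non-induced peaks that overlap an induced one. This can lower the first share and not the second, so nothing is concluded from their difference. At these genes the non-induced-only peaks ranged from 50.3 to 127 with a median of 66.6, and the highest induced border peaks from 51.8 to 677 with a median of 73.2. The induced score was the higher at 18 of the 31. Whether the scores of both lists share a scale was not tested, so nothing is concluded from this count. Among the highest by non-induced score were Gm32584 (127 non-induced, 53.9 induced), Gm42346 (112 and 677), Zfp980 (95.2 and 53.7), Ankrd26 (87.01 and 51.8), Sox21 (85.5 and 78.2), Tpgs1 (83.0 and 79.1), Lef1 (78.9 and 133), the hypothalamic homeobox gene Bsx (72.8 and 53.7) and Abce1, a ribosome recycling factor (72.8 and 109). At 12 of the 31 genes the non-induced peak and the highest induced peak were over 10 kb apart, as at Ankrd26, where they lay 59830 bp apart.

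Some border peaks lay right beside an induced peak without overlapping it. An induced peak was within 10 kb of 50 of the 291 (17.2%, 13.0 to 22.0), against 433 of the 10037 other non-induced-only peaks (4.31%, 3.92 to 4.73) and 6368 of 43164 coding gene borders (14.8%, 14.4 to 15.1). The interval of the border peaks includes the share of all gene borders. An induced peak lay within 1 kb of 14 of the 291 (4.81%, 2.65 to 7.94). The smallest gaps were 103 bp at Iigp1 (125.51 non-induced, 56.0 induced), 122 bp at Bsx (72.8 and 52.5), 123 bp at 2610318N02Rik (55.1 and 102), 222 bp at the calcium-activated potassium channel gene Kcnn1 (51.3 and 69.4) and 231 bp at the neural factor gene Sox21 (85.5 and 78.2). At Mrpl51 a non-induced peak of 67.8 lay 430 bp from an induced one of 319, and at the deubiquitinase gene Otub1 one of 52.1 lay 583 bp from one of 176.

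Of the 252 bins of 1 Mb with a border peak, 6 held 3 or more. Olfactory receptor genes held all border peaks of 2 of these bins, on chromosome 6 (Olfr437 87.1, Olfr13 83.9 and Olfr441 51.8) and on chromosome 9 (Olfr961 54.2, Olfr972 54.1 and Olfr937 51.03). The other 4 bins lay in stretches of distal chromosome 4 and proximal chromosome 5 that were marked off after their values were seen. In the stretch of 3 Mb on chromosome 4, whose first border peak began at 145451328 and whose last ended at 147813105, there were 11 border peaks at 7 of 28 coding genes, with scores of 50.3 to 156 and a median of 76.1. Zfp985 had 3 of them (105, 76.1 and 61.3), Zfp992 had 2 (156 and 59.1) and Gm42346 had 2 (112 and 71.8). This stretch held 88 non-induced-only peaks in all, 58 non-induced peaks shared with the induced list, and 114 induced peaks. In the stretch of 2 Mb on chromosome 5, whose first border peak began at 14913306 and whose last ended at 15716147, there were 7 border peaks at 5 of 12 coding genes, with scores of 91.3 to 125 and a median of 99.03. They lay at Gm10354 (125 and 96.8), Gm9758 (102 and 91.3), Gm21083 (107), Speer4c (99.03) and Gm21149 (94.97). Speer4c belongs to a family of closely similar gene copies, and which copy a peak in this stretch belongs to is uncertain. In the chromosome 4 stretch, which gene of the zinc finger cluster a peak belongs to was not tested. Cdc37l1 on chromosome 19 was the one gene outside these stretches with 2 border peaks (66.8 and 54.6).

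Outside both stretches 273 border peaks were left. Their median score was 61.4, the widest was 1245 bp, and 14 (5.13%, 2.83 to 8.45) reached a score of 100, against 263 of 9926 other non-induced-only peaks (2.65%, 2.34 to 2.98). Scores of at least 75 were reached by 49 (17.9%, 13.6 to 23.0), against 14.8% (14.2 to 15.6). Another non-induced peak lay within 10 kb of 38 of the 291 border peaks (13.1%, 9.41 to 17.5). This was close to the 1371 of 10037 other non-induced-only peaks (13.7%, 13.0 to 14.3). Of the 38, 16 were in the stretches.

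Across chromosomes the border peaks numbered from 1 on X to 27 on chromosome 2. Per 1000 coding genes they ranged over the autosomes from 6.61 (2.66 to 13.6) on chromosome 17 to 22.0 (13.8 to 33.3) on chromosome 10. Chromosomes 6, 9 and 16 were near the top, with 21.3, 20.8 and 20.6, and chromosomes 1, 7 and 8 near the bottom, with 8.31, 6.90 and 6.71. The interval of chromosome 7 (3.77 to 11.6) did not reach that of chromosome 10, and that of chromosome 16 (11.3 to 34.6) overlapped both. On X the only border peak, at the end of the homeobox gene Rhox2b (67.3), gave 1.04 per 1000 (0.0262 to 5.77), and there was no induced-only border peak. As a share of the non-induced-only peaks of a chromosome, border peaks made up 1.1% (0.528 to 2.01) on chromosome 1 and 6.60% (3.56 to 11.0) on chromosome 19, the lowest and the highest of the autosomes. One more non-induced-only border peak lay on chromosome Y, which the choice of chromosomes left out.

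**Figure D5:**
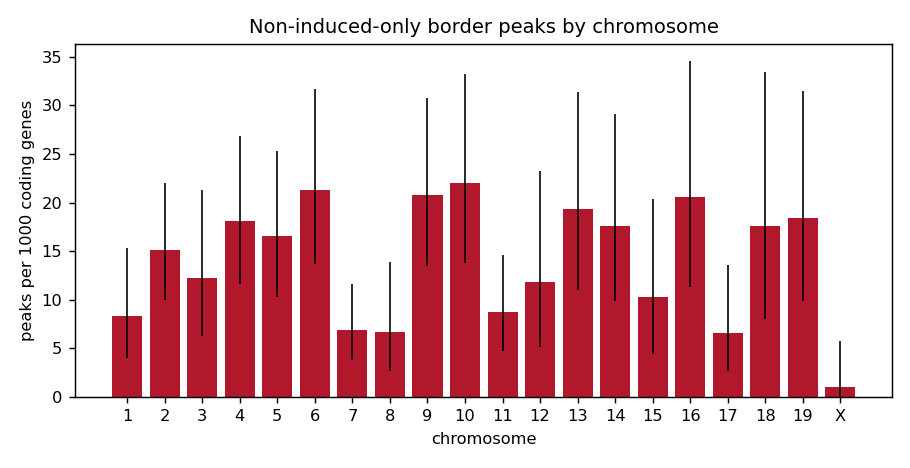
Non-induced-only border peaks per 1000 protein-coding genes on each chromosome, as bars with exact Poisson intervals. Autosomes run from 6.61 on chromosome 17 to 22.0 on chromosome 10, and X has 1.04.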

How the data were processed

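HA ChIP-seq of MEFs gave 1 list of peaks for induced and 1 for non-induced cells. Reads were aligned with Bowtie2 to mm10, per the submitters' processing notes, and MACS was the peak caller, as the names of the peaks in the deposited lists show. The sources used here do not give versions, thresholds, whether input was subtracted or how the 3 independent samples of the labels' protocols were combined. Each peak has a score written by the authors' caller, whose formula is not given. It was used only to describe and rank peaks. Lists were assigned by their marks for with and without, read like those in the library titles.

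Protein-coding genes came from a RefSeq table (GRCm38.p6) and strands and promoter windows from a RefSeq promoter table, which matched 250 of the 304 marked genes and has no chromosome 18. Strand is therefore unknown for some genes, and no genome sequence was used, so the planned measures of whole peaks and repeats were not run. Shares have exact Clopper-Pearson and counts exact Poisson intervals at 95%, and a share of 0 has a limit of 3 counts of its total. No test was made. The overlap and border functions were tested on simulated data and against bedtools 2.31.1. The scripts ran in Python 3.11.15 with SciPy 1.17.1, pandas 2.3.3, matplotlib 3.10.9 and numpy 2.4.6.

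The members and gene lists were chosen with earlier results of these data known. Genes were named by rule: the 25 highest, 3 lowest and 3 widest peaks, 3 on each side of the window's edge, up to 8 peaks with 2 genes, marked genes of each list (the 4 highest for lists of 100 genes or more), up to 10 genes marked in both lists, and genes with several peaks. A few genes that this rule takes are not reported here. The choice of promoters printed, the genes named for their promoter windows, as the one on X or in bins of 3 or more peaks, the classes of promoter and the stretches of chromosomes 4 and 5 were made after values were seen. Alternatives changed the score limit, the overlap, the window, the part of the peak used, the genes and clustered sites.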

Additional observations from a re-analysis of the deposited data

How the results depend on the processing

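No paired analysis was possible because there was 1 list per condition. Of 100 values (10 results under 10 alternatives) 73 stayed within the interval of the value reported, or for counts within 1.5 times of it. All 10 results did so with an overlap of 50% of the shorter peak, without predicted genes, without the 9 bins of 1 Mb that hold 3 or more shared peaks, and without the stretches of chromosomes 4 and 5, the last an alternative chosen after seeing the data. The share of midpoints inside the gene did so under all 10.

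The score limit and the window set the counts by construction. A window of 500 bp left 175 peaks (1.69% of the non-induced-only peaks), 184 genes and 64 genes of the lists, and a window of 5 kb gave 1010 peaks (9.78%), 1108 genes, 268 genes of the lists and a share of 21.6% of genes with an induced border peak too. A score limit at the joint median of both lists (61.6) gave 158 peaks (3.41%), 166 genes, 50 genes of the lists, a median score of 70.8, a median width of 603 bp and a share at starts of 53.5% (44.5 to 62.3). This limit was applied to both lists. Non-induced peaks that overlap only induced peaks below it therefore count too, so the 158 are not all among the 291. Non-induced scores of at least 75 gave 62 peaks (3.91%), 63 genes, 28 genes of the lists, medians of 90.8 and 694.5 bp, a share at starts of 56.9% (42.2 to 70.7) and 72.6% with no induced peak within 10 kb. Under both limits starts outnumbered ends, though both intervals include 50%, the joint median also takes in such overlapping peaks, and the cause was not tested. Counting peaks within 1 kb of each other as shared gave 6.90% of genes with an induced border peak too and 87.0% with no induced peak within 10 kb, since it leaves out the peaks nearest to an induced one. With midpoints in the window the share at a border was 2.17%.

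The list of Hox genes had 6 to 8 marked genes in 8 of the alternatives, 2 at the joint median and 1 at scores of 75. At scores of 75 the Hox share was 2.56% (0.0649 to 13.5) and that of olfactory receptors 0.631% (0.254 to 1.295, 7 genes), and both intervals include the 0.291% of all coding genes at that limit. The share of signalling genes stayed above that of all coding genes, with 4 of 60 (6.67%, 1.85 to 16.2) at the joint median. The peak of Dll1 (50.8) lies below that limit. The 4 genes there thus include one marked by a peak that overlaps an induced peak below the limit. At scores of 75 the share was 3.33% (0.406 to 11.5) and rested on 2 genes. Without read counts the depth of each list is unknown.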
